A study of Mus musculus with 2 samples.

Results

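The genes described here mark or serve the 2 kinds of interstitial cell that lie among the smooth muscle cells (SMCs) of the gut wall, the interstitial cells of Cajal (ICC) and the PDGFRA+ cells. They are *Kit*, *Kitl*, *Ano1*, *Etv1*, *Gja1*, *Gjc1*, *Pdgfra* and *P2ry1*, chosen by symbol, and all 8 were found among the 18159 genes of the mRNA-seq table. The values come from the muscle wall (tunica muscularis) of the jejunum of C57BL/6 mice at 15 days of age, with 1 library for *Dnmt1*-WT and 1 for *Dnmt1*-KO. Both genotypes carry the transgene Tg(Myh11-cre,-EGFP)2Mik, which drives Cre and eGFP from the *Myh11* promoter. In *Dnmt1*-KO mice Cre removes part of the floxed *Dnmt1* gene in SMCs, so that other cells of the wall keep it unless they have used that promoter. The strain label names Dnmt1lox/lox for both samples, whereas the study's text names only the Cre-eGFP allele for *Dnmt1*-WT mice. Male and female mice stand behind each library, and how their RNA was combined is not stated in the sources used here. Whether Cre had been active in ICC or PDGFRA+ cells was not measured here. The free-text description names the knockout for both samples, and the genotype label was followed. *Dnmt1* itself was at 11.58 FPKM with the wild-type label and at 7.58 FPKM with the knockout label. FPKM, a fragment count divided by transcript length and by the number of fragments mapped, takes length into account, so that levels can be compared between genes. With 1 library for each genotype there was no spread between replicates to set a difference against, no test was made, and "halved" below describes these 2 libraries only.

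ICC are the pacemaker cells of the gut. They develop and persist under signals from the receptor tyrosine kinase KIT, which is activated by stem cell factor, the product of *Kitl*, and they rely on the transcription factor ETV1. Their pacemaker current flows through ANO1, a chloride channel opened by calcium, and electrical slow waves spread through gap junctions built of connexins such as connexin 43 (*Gja1*) and connexin 45 (*Gjc1*). PDGFRA+ cells answer purines released by inhibitory neurons through the receptor P2RY1 and the small-conductance potassium channel SK3 (*Kcnn3*). SMCs, ICC and PDGFRA+ cells are coupled to one another and act as a syncytium.

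DNMT1 maintains methylation of cytosines in CpG dinucleotides, and the stretches before the start of *Kit*, whose level was nearly the same in both libraries, and of *Kitl*, *Gja1* and *P2ry1*, which were at most halved, are shown for their CpG content. The sequences are from RefSeq on GRCm38.p6, on the plus strand, 5′ to 3′, with each CpG in capitals, and each lies within the 250 bases before the RefSeq start. The *Kit* stretch is chr5:75574737-75574915, that of *Kitl* chr10:100015571-100015629, that of *Gja1* chr10:56377050-56377299 and that of *P2ry1* chr3:61002535-61002784. The first 2 end where the GENCODE M21 gene begins, so the stretches differ in length, with 179, 59, 250 and 250 bases. They hold 10, 3, 6 and 20 CpGs in this order, counts that are not comparable without the lengths.
Kit: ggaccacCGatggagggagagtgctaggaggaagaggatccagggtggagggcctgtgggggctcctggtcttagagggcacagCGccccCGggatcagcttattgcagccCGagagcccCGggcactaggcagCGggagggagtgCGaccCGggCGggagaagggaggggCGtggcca
Kitl: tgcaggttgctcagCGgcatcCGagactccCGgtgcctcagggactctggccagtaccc
Gja1: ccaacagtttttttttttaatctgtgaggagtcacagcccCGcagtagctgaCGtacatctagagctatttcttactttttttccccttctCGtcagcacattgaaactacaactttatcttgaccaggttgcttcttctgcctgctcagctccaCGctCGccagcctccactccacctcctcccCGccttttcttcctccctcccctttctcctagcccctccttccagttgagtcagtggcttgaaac
P2ry1: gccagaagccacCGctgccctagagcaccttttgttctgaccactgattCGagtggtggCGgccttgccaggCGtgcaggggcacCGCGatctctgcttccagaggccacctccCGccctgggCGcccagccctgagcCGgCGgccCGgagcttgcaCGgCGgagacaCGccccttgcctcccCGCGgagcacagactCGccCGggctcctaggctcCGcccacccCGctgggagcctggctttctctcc

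RefSeq start sites were found for 7 of the 8 genes, and the windows of 250 bases before them differed widely in CpG content. *Gjc1*, which was also at most halved, had none and is left out here. The *Kitl* window held 23 CpGs, and 13.3% of all 32851 windows held as many or more. The counts were 20 for *P2ry1* and 6 for *Gja1*, so the halved genes included windows above the upper quartile of all windows, 16, and 1 at the median, 6. *Kit*, which was nearly unchanged, has 2 listed starts with 17 and 18 CpGs, also above the upper quartile. *Ano1* had 16, *Pdgfra* 4, and the 2 starts of *Etv1* 9 and 1. The letters CCGGAA, the core that ETS factors such as ETV1 bind, were searched on both strands and occurred once, in the *Kitl* window, while 12% of all windows held them. The CArG box bound by SRF, also searched on both strands, occurred in none of the 9 windows of these genes and in 1.47% of all windows. Methylation of these sites was not analysed here.

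In the values as deposited all 8 genes were lower in *Dnmt1*-KO, by amounts that ran from 2.18% for *Kit*, whose direction turned under other scalings, to 54.8% for *Kitl*. The ratio, *Dnmt1*-KO over *Dnmt1*-WT throughout, was at most 0.5 for *Kitl*, *Gja1*, *P2ry1* and *Gjc1*, and it was 2 or more for none. With 1 added to each FPKM, *P2ry1* and *Gjc1* lay just above 0.5, at 0.515 and 0.506. *Gjc1* also lay above 0.5 under median and upper quartile scaling. The genes that define ICC themselves, *Kit*, *Ano1* and *Etv1*, had the 3 highest ratios. Of the 16102 genes above 0 FPKM in both libraries, 4.98% were at most halved, 11.8% at least doubled and 49.1% below a ratio of 1. Large ratios were more frequent at low levels, so the 7084 genes whose geometric mean over the 2 libraries lay between those of *P2ry1* and *Gja1*, 7.46 and 107 FPKM, were taken as a closer background. Among them 2.37% were at most halved, 3.73% at least doubled and 55.2% below a ratio of 1. With 0.1 added to each FPKM, the 8 genes had a median log2 ratio of -0.89, against -0.05 over the closer background and 0.01 over all genes above 0 in both libraries. In bulk tissue fewer cells of a type and less RNA per cell cannot be told apart.

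**Figure D1:**
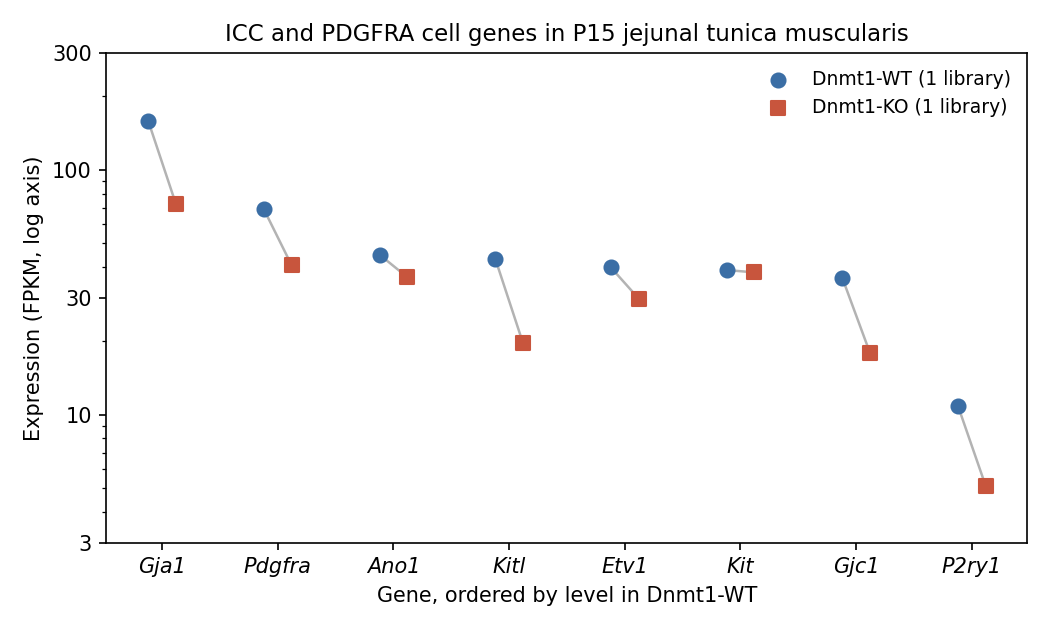
Expression in FPKM (log axis) of the 8 genes in the *Dnmt1*-WT library (circles) and the *Dnmt1*-KO library (squares), ordered by level in *Dnmt1*-WT, with a line joining the values of a gene. The line of *Kit* is nearly flat, from 38.95 to 38.1 FPKM, while those of *Gja1*, *Kitl*, *Gjc1* and *P2ry1* drop by about the same step.

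*Kit*, the receptor that marks ICC, lies on chromosome 5 of GRCm38 from 75574916 to 75656722. Its level was 38.95 FPKM in *Dnmt1*-WT and 38.1 FPKM in *Dnmt1*-KO, a ratio of 0.978. This is near the middle of the closer background, in which 51.8% of genes had a ratio as low or lower. By level, *Kit* was the 1847th gene of the *Dnmt1*-WT library and the 1910th of the *Dnmt1*-KO library. Its direction depended on the scaling, since dividing each library by its upper quartile gave a ratio of 1.02.

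*Kitl*, the gene of the KIT ligand, had the lowest ratio of the 8. It lies on chromosome 10 from 100015630 to 100100416, and its value was 43.4 FPKM in *Dnmt1*-WT and 19.6 FPKM in *Dnmt1*-KO, a ratio of 0.452. Only 1.60% of the closer background had a ratio as low. In the *Dnmt1*-WT library ligand and receptor were at about the same level, with *Kitl* at 1.11 times *Kit*. In the *Dnmt1*-KO library *Kitl* was at 0.514 times *Kit*, and its place by level moved from 1626 to 3727.

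The other ICC genes lay between these. *Ano1*, the calcium-activated chloride channel, lies on chromosome 7 from 144588549 to 144751974 and was at 45 FPKM in *Dnmt1*-WT and 36.41 FPKM in *Dnmt1*-KO, a loss of 19.1%. *Etv1*, on chromosome 12 from 38779380 to 38870484, was at 39.9 and 29.78 FPKM, a loss of 25.4%. Neither value stands apart from genes of like level, since 25.4% and 17.3% of the closer background had ratios as low. *Ano1* went from 1.16 times the level of *Kit* to 0.956 times, and *Etv1* from 1.02 to 0.782 times. With *Kitl*, *Ano1* and *Etv1* all below it in *Dnmt1*-KO, *Kit* moved from sixth place among the 8 genes to the third.

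Both connexin genes were at most halved. *Gja1*, the most abundant of the 8 in either library, lies on chromosome 10 from 56377330 to 56402513 and was at 158.4 FPKM in *Dnmt1*-WT and 72.34 FPKM in *Dnmt1*-KO, a ratio of 0.457. Its rank by level moved from 389 to 959, and 1.67% of the closer background had a ratio as low. *Gjc1*, on chromosome 11 from 102799579 to 102819700, was at 36.27 and 17.87 FPKM, a ratio of 0.493, which stands just inside the limit of 0.5. It moved above that limit under scaling to the median of all genes and to the upper quartile, with ratios of 0.503 and 0.515. Connexin 43 and connexin 45 are also made by SMCs, and connexin 43 by enteric glia, so their values are not those of ICC alone.

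The genes of PDGFRA+ cells were lower as well. *Pdgfra*, on chromosome 5 from 75152292 to 75198215, was at 68.95 FPKM in *Dnmt1*-WT and 40.72 FPKM in *Dnmt1*-KO, a loss of 40.9%, and 5.15% of the closer background had a ratio as low. It went from 1.77 times the level of *Kit* to 1.07 times, so that the receptors of the 2 cell types were at nearly the same level in the *Dnmt1*-KO library. *P2ry1*, the purine receptor, lies on chromosome 3 from 61002795 to 61008982 and was the weakest of the 8, at 10.88 and 5.12 FPKM. Its ratio was 0.471, with 1.82% of the closer background as low, and its rank moved from 6142 to 9269. With 1 added to each FPKM the ratio of *P2ry1* was 0.515, above the limit of 0.5.

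**Figure D2:**
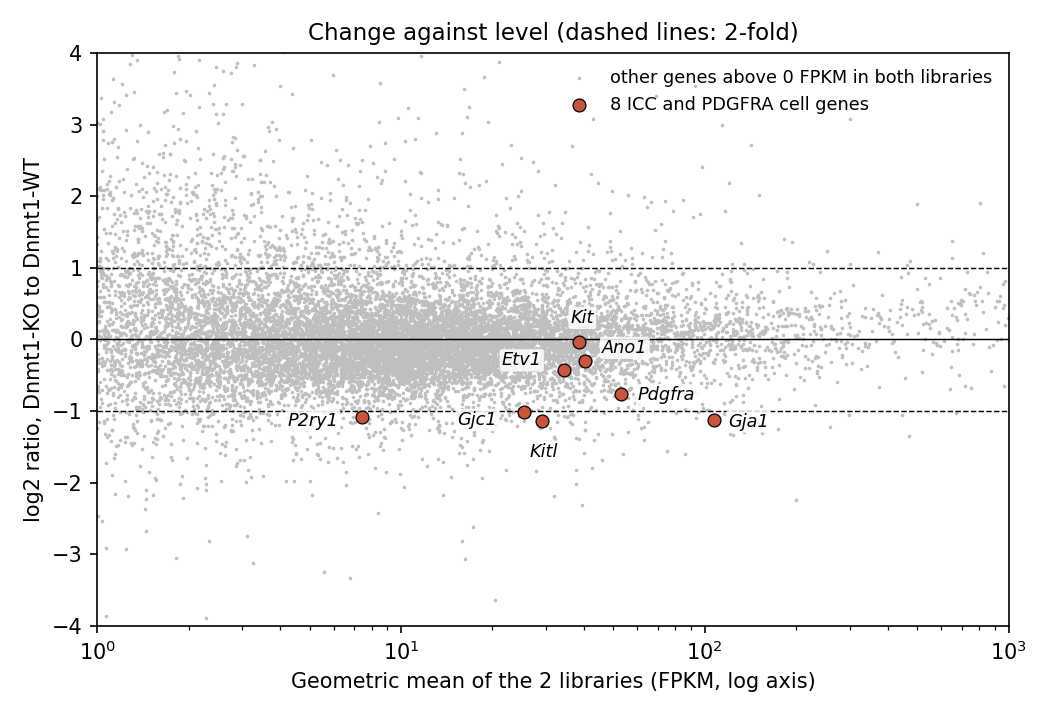
Log2 ratio of *Dnmt1*-KO to *Dnmt1*-WT against the geometric mean of both libraries (FPKM, log axis) for the 8 genes (large points) and the other genes above 0 FPKM in both libraries (grey), with 2927 genes beyond the axes. *Kit* lies at the line of no change, and *P2ry1*, *Gjc1*, *Kitl* and *Gja1* lie just below the lower dashed line, where few genes of their level are found.

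For 5 of the 8 genes as many transcript variants were found in one library as in the other. It went from 4 to 3 for *Ano1*, from 3 to 2 for *Gja1* and from 4 to 5 for *Etv1*. Over all genes above 0 FPKM in both libraries, 13.6% had fewer variants in *Dnmt1*-KO, while 12.5% had more. GENCODE M21 places no other gene over *Kit*, *Kitl*, *Etv1*, *Gja1* or *Gjc1*, while *Ano1* and *P2ry1* overlap 1 antisense gene each and *Pdgfra* overlaps 3 genes, 2 of them on the opposite strand. None of these has a value of its own in the table, and reads from those on the opposite strand cannot be told apart from the gene unless strand was used in counting, which is not stated. Strand would not separate *Mir7025*, which lies on the same strand as *Pdgfra*.

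*Kit* and *Pdgfra* are neighbours that encode receptors of 1 class, and with *Kdr*, the receptor for vascular endothelial growth factor, they are the only protein-coding genes annotated between 75152292 and 75978458 on chromosome 5. The 3 genes had different ratios, 0.591 for *Pdgfra*, 0.978 for *Kit* and 2.63 for *Kdr*. *Kdr* went from 4.26 to 11.19 FPKM and is a marker of endothelium.

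Further ICC genes were taken from a list of 10, and 8 of these had a ratio below 1. *Prkcq*, a protein kinase of ICC, went from 24.19 to 19.83 FPKM and *Thbs4*, a matrix protein gene of ICC, from 43.09 to 32.48 FPKM, with ratios of 0.820 and 0.754 that lie near those of *Ano1* and *Etv1*. Those at most halved were *Gpr20* (48.52 to 21.88 FPKM), an orphan receptor gene, *Hand1* (128.37 to 43.6 FPKM), a transcription factor gene, and *Tacr1* (5.47 to 1.7 FPKM), the substance P receptor. The median log2 ratio of the list was -0.66. Of all genes above 0 FPKM in both libraries, 49.1% had a ratio below 1, 4.98% were at most halved and 11.8% at least doubled. In the closer background these shares were 55.2%, 2.37% and 3.73%. The same shares stand beside the counts of the lists below.

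Ion handling behind the pacemaker was described by 17 genes, of which 14 had a ratio below 1 and 2 were at most halved. These were the calcium pump gene *Atp2b4* (197.55 to 85.77 FPKM) and the calcium release channel gene *Ryr3* (4.49 to 1.96 FPKM). *Itpr1*, the inositol trisphosphate receptor that releases calcium in ICC, went from 25.65 to 15.64 FPKM, and *Slc12a2*, the carrier that loads them with chloride, from 48.22 to 29.38 FPKM. The highest ratio was that of *Itpr3*, 1.43, at 10.67 and 15.23 FPKM. The median log2 ratio was -0.55. Over all genes above 0 FPKM in both libraries, 49.1% had a ratio below 1 and 4.98% were at most halved. Many of these genes are also used by SMCs, and *Cacna1h* and *Slc12a2* stand in both this list and that of ICC genes.

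KIT acts through the ERK and phosphoinositide 3-kinase pathways among others, described here by 31 genes. Of these, 19 had a ratio above 1 and 12 a ratio below 1, none was at most halved, and the median log2 ratio was 0.04. At least doubled were *Ptpn6* (1.67 to 5.55 FPKM), a phosphatase of blood cells, *Sh2b2* (0.63 to 2.84 FPKM), an adaptor, and *Etv4* (0.42 to 1.05 FPKM), a relative of *Etv1*. *Pik3ca*, a catalytic subunit of phosphoinositide 3-kinase, had the lowest ratio, 0.601, at 16.92 and 10.16 FPKM. Targets of the ERK pathway had ratios of 1.31 for *Dusp6*, 1.17 for *Spry2*, 1.01 for *Spry4* and 1.33 for *Etv5*, and *Spred1*, an inhibitor of the same pathway, had a ratio of 0.734.

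Among the 5 class III receptor tyrosine kinases, *Kit* and *Pdgfra* were the only ones with a ratio below 1, and *Kit* lay above 1 under upper quartile scaling. *Pdgfrb*, the receptor of pericytes and fibroblasts, went from 8.54 to 14.47 FPKM, *Csf1r*, the receptor of macrophages, from 14.79 to 26.16 FPKM, and *Flt3* from 0.07 to 0.42 FPKM. Of their 8 ligand genes, *Kitl* and *Pdgfa* had ratios below 1. *Pdgfa*, the main ligand of PDGFRA, was at 47.9 and 35.91 FPKM, a ratio of 0.75. *Pdgfb*, *Pdgfc* and *Pdgfd* had ratios of 1.74, 1.21 and 1.54, and *Csf1*, *Il34* and *Flt3l* of 1.13, 1.57 and 1.82. Of *Kit*, *Kitl*, *Pdgfra* and *Pdgfa*, only *Kitl* was at most halved.

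The connexin and pannexin family moved in both directions. Of 23 genes 18 were matched and 15 were above 0 FPKM in both libraries, with 6 at least doubled and 3 at most halved. The halved genes were *Gja1*, *Gjc1* and *Gja3*, the last of which was at 0.43 and 0.03 FPKM. *Gja4* and *Gja5*, connexins of vessel walls, were at 2.22 and 0.62 FPKM in *Dnmt1*-WT against 10.77 and 6.63 FPKM in *Dnmt1*-KO. The connexins *Gjb1* (0.26 to 3.18 FPKM), *Gjb2* (0.14 to 0.48 FPKM) and *Gjb5* (3.26 to 6.71 FPKM), which are known from epithelia, were at least doubled too. The summed level of the family went from 225.23 to 147.17 FPKM, and *Gja1* made up the greater part of it in *Dnmt1*-WT.

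*Kcnn3*, the channel through which P2RY1 acts in PDGFRA+ cells, was at 32.46 FPKM in *Dnmt1*-WT and 15.93 FPKM in *Dnmt1*-KO, a ratio of 0.491 close to that of *P2ry1*. The list of purinergic inhibition to which it belongs held 12 genes, 6 with a ratio above 1 and 6 below, and 3 were at most halved, or 2 after centring on the median of all genes, under which *Kcnn3* lay just above the limit. The other two were *Kcnn2* (2.0 to 0.91 FPKM) and the adenosine receptor gene *Adora2b* (0.79 to 0.23 FPKM). *Nt5e*, the enzyme that makes adenosine outside the cell, went from 33.14 to 17.75 FPKM and *Entpd1*, which breaks down ATP, from 30.3 to 18.04 FPKM. Its relatives *Entpd2* and *Entpd3* had ratios of 1.89 and 1.28, and *Cd38*, which consumes NAD, had a ratio of 1.87. *Kcnn4* was at least doubled, from 0.48 to 0.97 FPKM, and *Bst1* had a ratio of 1.99, from 2.47 to 4.92 FPKM. The median log2 ratio was -0.06.

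**Figure D3:**
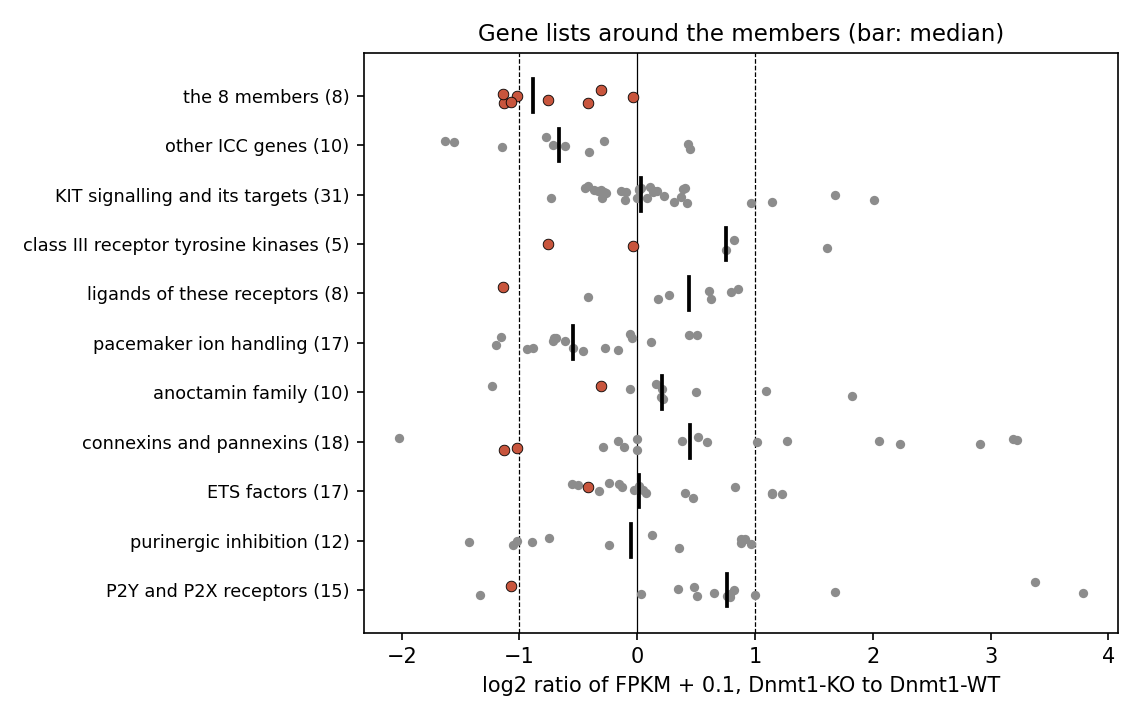
Log2 ratio of FPKM + 0.1, *Dnmt1*-KO to *Dnmt1*-WT, for each gene (points) of the lists around the 8 genes, with the number of genes in brackets, the 8 genes in red, the median as a bar and 2-fold as dashed lines. The medians of the 8 genes, the other ICC genes and the pacemaker genes lie at -0.89, -0.66 and -0.55, and that of the genes downstream of KIT lies at 0.04.

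Markers of other cells that the wall or the dissection could hold were examined beside these values, since some of them use the same genes. All 8 SMC markers had a ratio below 1, with a median of 0.772 and a summed level of 16618 FPKM in *Dnmt1*-WT and 12061 FPKM in *Dnmt1*-KO. *Myh11* and *Smtn* had ratios of 0.468 and 0.427, and the other 6 had ratios from 0.626 (*Myocd*) to 0.893 (*Cnn1*). The ratios of *Gja1*, *Gjc1* and *Kitl* lay within the span of the 8 markers. SMCs are also a source of stem cell factor. The part of SMCs in the values of *Gja1*, *Gjc1* and *Kitl* was not tested. Markers of enteric glia, which also make connexin 43, had a median ratio of 1.16 over 6 genes and a summed level of 92.26 and 140.68 FPKM, and *Gfap* had the highest ratio of them, 7.40.

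Mast cells and melanocytes also carry KIT. Of 10 mast cell genes 8 were matched, of which *Dnmt1*-WT had 5 listed at 0 while *Dnmt1*-KO had 1, and their summed level was 0.23 and 5.90 FPKM. The most abundant in the *Dnmt1*-KO library were *Tpsb2*, at 2.08 FPKM and listed at 0 in *Dnmt1*-WT, and *Cma1*, at 1.55 FPKM and listed at 0 in *Dnmt1*-WT. Of 5 melanocyte genes 4 were matched, with a summed level of 0.27 and 0.88 FPKM. The part of mast cells in the *Kit* value of the *Dnmt1*-KO library was not tested.

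PDGFRA is found on fibroblasts of the gut as well. Fibroblast markers lay opposite to *Pdgfra*, with 7 of 8 having a ratio above 1 and a summed level of 3277 and 5098 FPKM. *Col1a1* went from 700.41 to 1517.78 FPKM, *Cd34* from 28.35 to 64.94 FPKM and *Pi16* from 0.77 to 5.78 FPKM. Stromal cells under the epithelium, which are also rich in PDGFRA, were described by 6 genes with a summed level of 87.23 and 67.16 FPKM. Of the 5 above 0 in both libraries 4 had a ratio below 1, and the median ratio was 0.841. *Foxl1*, which defines part of these cells, was near the floor, listed at 0 in *Dnmt1*-WT and at 0.18 FPKM in *Dnmt1*-KO.

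The remaining lists ran higher in the *Dnmt1*-KO library. Enteric neuron markers changed least, with 6 of 8 ratios above 1 and a summed level of 464.11 and 575.41 FPKM. All 6 endothelial markers had ratios above 1, and their summed level was 46.27 and 106.47 FPKM, beside the vessel connexins *Gja4* and *Gja5*. Epithelial markers went from 55.54 to 101.70 FPKM in sum, beside the connexins known from epithelia, and the 5 macrophage markers matched of 6 from 102.80 to 362.86 FPKM. The part of these cells in the values of the 8 genes was not tested.

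**Figure D4:**
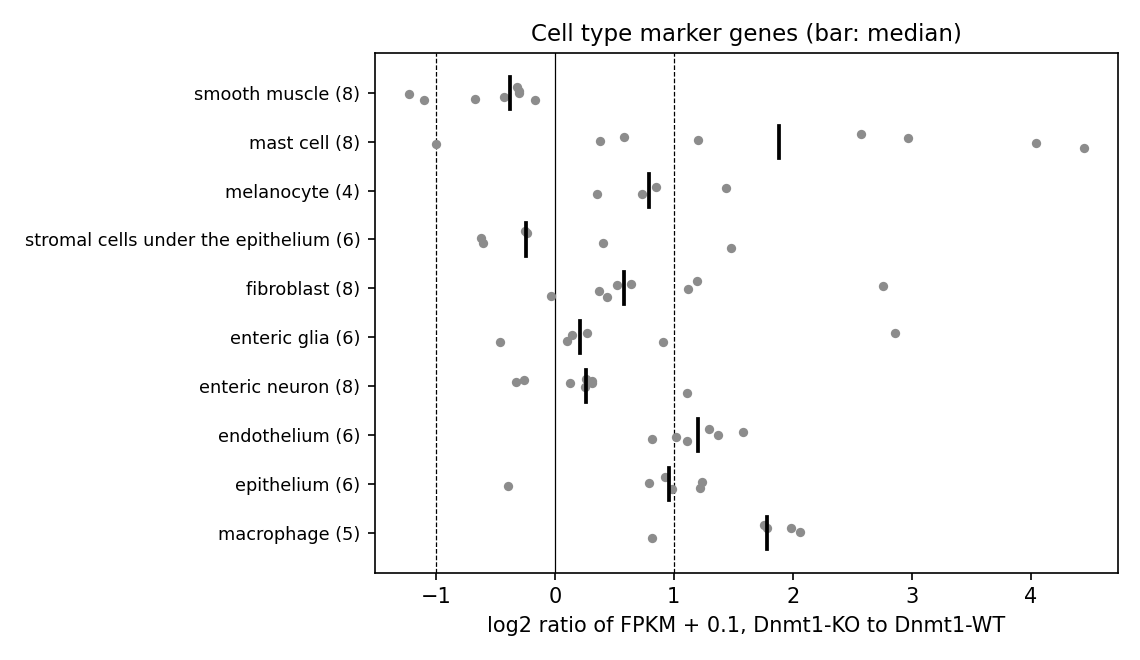
Log2 ratio of FPKM + 0.1, *Dnmt1*-KO to *Dnmt1*-WT, for marker genes (points) of 10 cell types, with the number of genes in brackets, the median as a bar and 2-fold as dashed lines. SMC markers all lie below 0, with a median of -0.38, while endothelial and macrophage markers all lie above 0, with medians of 1.2 and 1.78.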

How the data were processed

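The deposited table gives, for each gene symbol, the FPKM of each library as the authors made it, the number of transcript variants and the authors' ratio of the genotypes, which was not used. The submitters' processing notes name TopHat 1.4.1, Cufflinks 2.0.2 and mm10, and libraries were made with the TruSeq RNA kit. The counts behind the FPKM are not given per gene, so depth per gene is unknown and intervals were not computed. Values above 0 began at 0.03 FPKM in each library, and each library's FPKM summed to 429698 (*Dnmt1*-WT) and 460845 (*Dnmt1*-KO). Values were compared without rescaling as plain ratios, and medians of log2 ratios used a pseudocount of 0.1. A ratio of 2 or more or of 0.5 or less was the size counted. Genes at 0 in a library have no ratio.

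The 8 genes and all lists were chosen with earlier results of these data known. Of each list, the genes at least doubled or at most halved and the genes with the highest and lowest ratio at 1 FPKM or more in 1 library were named, with all ligands and receptors of KIT and PDGFRA. Some genes that this rule names are not reported here. *Prkcq*, *Thbs4*, *Itpr1*, *Slc12a2*, *Nt5e*, *Entpd1*, *Entpd2*, *Entpd3*, *Cd38*, *Dusp6*, *Spry2*, *Spry4*, *Spred1*, *Etv5*, *Myocd*, *Tpsb2*, *Cma1* and *Foxl1* were named after their values were seen. The closer background was also chosen after the data were seen. Positions came from GENCODE M21 on GRCm38. The counting of genes past a fold was checked on values changed by a known factor without noise. That check covers the counting only, and not how far the counts would hold in other libraries. Python 3.11.15, numpy 2.4.6, pandas 2.3.3 and matplotlib 3.10.9 were used.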

Additional observations from a re-analysis of the deposited data

How the results depend on the processing

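With 1 library for each genotype no error can be attached to any ratio, and a difference of handling between the samples cannot be told apart from genotype. No paired analysis was possible because each genotype has 1 library. Scaling to the FPKM sum shifted all log2 ratios by -0.10, and the other scalings by 0.03 to 0.06. Over the scalings and pseudocounts tried, the ratio of *Kitl* ran from 0.421 to 0.472, of *Gja1* from 0.426 to 0.477, of *P2ry1* from 0.439 to 0.515, of *Gjc1* from 0.459 to 0.515, of *Pdgfra* from 0.551 to 0.617, of *Etv1* from 0.696 to 0.780, of *Ano1* from 0.754 to 0.846 and of *Kit* from 0.912 to 1.02. The number of the 8 genes at most halved was 3 under the median and upper quartile scalings and 2 with a pseudocount of 1, and 7 of the 8 stayed below 1 under every scaling. The share of all genes with a ratio of 2 or more was 5.53% among genes at 1 FPKM or more in both libraries, 4.86% with a pseudocount of 1 and 3.73% among genes at the level of the 8, and that with a ratio of 0.5 or less was 2.82%, 1.73% and 2.37%. With genes at 1 FPKM or more in 1 library, the number at least doubled became 0 for class III receptors, 1 for anoctamins, 0 for purinergic inhibition and 1 for mast cell genes, whose median log2 ratio became 4.04, and 0 anoctamins were at most halved. Centring on the median gave 2 purinergic genes at least doubled and 2 at most halved.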

Other observations

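Relatives of the 8 genes outside these cells were examined by family. *Ano1* was the most abundant of 10 anoctamin genes in *Dnmt1*-WT, at 45 FPKM, followed by *Ano6*, a widely expressed phospholipid scramblase, at 40.36 FPKM. In the *Dnmt1*-KO library the order was reversed, with *Ano6* at 45.08 and *Ano1* at 36.41 FPKM. *Ano9* went from 1.19 to 2.66 FPKM, *Ano3* from 0.03 to 0.36 FPKM and *Ano5* from 0.58 to 0.19 FPKM. Of 17 ETS factor genes *Etv1* was the most abundant in both libraries. Those at least doubled were *Etv4* and the endothelial factors *Erg* (2.32 to 5.57 FPKM) and *Fli1* (2.44 to 5.53 FPKM), and none was at most halved.

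Of the 15 genes of P2Y and P2X purine receptors, 12 were above 0 FPKM in both libraries, and *P2ry1* and *P2rx6* (7.01 to 2.72 FPKM) were the only ones with a ratio below 1 in the values as deposited. *P2rx1* went from 0.25 to 3.54 FPKM and *P2ry14* from 6.01 to 12.09 FPKM. *P2rx2*, the most abundant of the family, was at 20.48 and 20.88 FPKM. *P2rx5*, *P2ry4* and *P2ry10* were listed at 0 in *Dnmt1*-WT and at 1.28, 0.07 and 0.22 FPKM in *Dnmt1*-KO.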
